A study of Mus musculus with 10 samples.

Results

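The 67 genes described here encode splicing factors, proteins of the small nuclear ribonucleoproteins (snRNPs) and heterogeneous nuclear ribonucleoproteins (hnRNPs) in mouse O9-1 cells. They were chosen from a table of 43346 genes by their symbols, which start with 1 of 7 prefixes (Sf3a, Sf3b, Srsf, Snrp, Prpf, U2af or Hnrnp), and by a mean of at least 50 counts in the wildtype libraries. The rule itself uses no value of a knockout clone. Of 71 genes with these prefixes, 2 carry "-ps" in the name and were left out, and 2 were under the limit. These 2 were Srsf12, with 0 counts in every wildtype library, and a second gene listed under the symbol Snrpn (ENSMUSG00000000948), with a wildtype mean of 18.25 counts. Nearest above the limit were Snrpn (ENSMUSG00000102252), with 119.5 counts, U2af1l4, with 610.75, and Prpf38a, with 1514. The genes fall into 9 SF3, 12 Sm and snRNP, 3 U2AF, 13 PRPF, 10 SR and 20 hnRNP genes.

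O9-1 is an established mouse line of cranial neural crest cells, a migratory embryonic cell population from which much of the facial mesenchyme forms. RNA sequencing covered 4 biologically independent samples of wildtype cells (genotype WT, here WT/1 to WT/4), 3 clones with a Kat5 knockout (Kat5/1 to Kat5/3) and 3 clones with an Ep400 knockout (Ep400/1 to Ep400/3), none of them under a treatment named in the labels. Kat5 is a lysine acetyltransferase and Ep400 an ATPase, and both belong to the Tip60/Ep400 chromatin remodeling complex. The line is tetraploid, the clones were made by CRISPR/Cas9, and each knockout library stands for a single clone. By their genotyping, Ep400/2 and Ep400/3 kept some alleles with in-frame deletions at the ATP binding site, whereas all alleles of Ep400/1 and of the Kat5 ko clones carried frameshifts.

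Introns are removed by the spliceosome, which assembles anew on each intron from snRNPs and many further proteins. The U1 snRNP marks the 5′ splice site, the U2AF proteins bind the 3′ splice site, and the SF3 proteins, as parts of the U2 snRNP, hold the branch point. The PRPF proteins enter largely with the U4/U6.U5 tri-snRNP or act in its activation and catalysis, while the Sm proteins form the ring on which most spliceosomal snRNAs are built. SR proteins and hnRNPs bind exons and introns and shift the choice of splice sites, often in opposite directions. Cells of the neural crest lineage are known to be sensitive to loss of core splicing factors, and mutations of SF3B4 and of other spliceosomal genes underlie human craniofacial syndromes.

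Between 30968945 and 48301792 reads per library were counted on genes. The targeted transcripts were at 42.6%, 30.5% and 43.1% of the wildtype mean of Kat5 in the 3 Kat5 ko clones and at 34.3%, 38.5% and 37.4% of that of Ep400 in the 3 Ep400 ko clones. Mitochondrial genes took 0.893% to 3.24% of all counts, most in Ep400/3. Of 16 neural crest markers, 13 reached a mean of at least 1 count on the counts-per-million (CPM) scale in wildtype cells, while Sox10 and Foxd3 were at 0 in all 10 libraries. The 16 markers summed to 7866 to 9537 CPM in wildtype cells, 7329 to 7591 CPM in the Kat5 ko clones and 9226 to 12830.2 CPM in the Ep400 ko clones. The sum was thus lower in the former and, apart from an overlap, higher in the latter. It follows the most abundant markers and does not describe each of them. At least 1 CPM on average was reached by 13 of the 16 in the Kat5 ko and 14 in the Ep400 ko clones. Markers of neurons, glia, epithelium and pluripotent cells summed to at most 28.3 CPM in any library, and those of bone and cartilage to at most 124. The sum of 6 smooth muscle markers was 53.7 to 78.3 CPM in wildtype cells, 63.0 to 758 CPM in the Kat5 ko clones and at most 90.7 CPM in the Ep400 ko clones. The part of these differences in the results below was not tested.

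Levels are given in CPM after scaling of the libraries by TMM, which sets the bulk of genes equal between them. A level stands for the share of the RNA pool, so that fewer transcripts per cell and fewer cells with a transcript cannot be told apart. To compare genes with each other, wildtype levels were also divided by the exon length of the gene in GENCODE M21 and scaled to transcripts-per-million (TPM) within each library. This length counts every base covered by any annotated exon of the gene, and can exceed that of the transcripts made. Per length, Hnrnpa1, a shuttling RNA-binding protein that often represses exons, had the highest wildtype level with 1084 ± 94.3 TPM (SD, n = 4). It was followed by Hnrnpab with 684 ± 13.3, Hnrnpa2b1 with 568 ± 51.9, Hnrnpk with 490.2 ± 30.9 and the Sm gene Snrpf with 432 ± 116 TPM. The SD of Snrpf was wider than its distance to Hnrnpk, and this pair cannot be ordered. At the low end stood Snrpn with 4.83 ± 0.697, Prpf39 with 12.5 ± 4.53, Hnrnpr with 17.2 ± 0.843, Hnrnpu with 19.9 ± 4.71 and Prpf4 with 23.3 ± 1.12 TPM, of which Hnrnpu was within its SD of both Hnrnpr and Prpf4. These ranks depend on the length used, which was 22199 bases for Hnrnpr, 11967 for Prpf39 and 11599 for Hnrnpu. Before division by length, Hnrnpr had a wildtype mean of 117 CPM, against 40.6 CPM for Prpf4. By class, the median wildtype level per length was highest for the hnRNP genes (196 TPM) and lowest for the PRPF genes (35.7 TPM).

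In the wildtype libraries most of the genes varied little. The coefficient of variation was lowest for Hnrnpr (2.66%) and highest for Prpf39 (34.3%), Hnrnph1 (31.0%) and Snrpf (30.3%). Prpf39, a U1 snRNP-associated factor, was at 36.3, 34.4, 68.2 and 43.1 CPM, and Hnrnph1, which binds runs of guanines, at 393, 369, 661 and 382 CPM, so that WT/3 was the high library in both. The Sm gene Snrpf was at 118, 159.6, 107 and 75.1 CPM. The Sm and snRNP genes moved together among the wildtype libraries. Their median log2 difference from the wildtype mean was 0.07, 0.28, −0.17 and −0.10 in WT/1 to WT/4. In WT/2 10 of 12 were highest, against 28.6% of all genes, and in WT/3 8 of 12 were lowest, against 33.8%.

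The genes lie on 18 chromosomes, with 9 on chromosome 7, 7 on chromosome 2 and 6 each on chromosomes 4, 11 and 17. Exon bases of 27 of them overlap another annotated gene, 7 on the same and 23 on the opposite strand. For Snrpf 65.9% of the exon bases lie opposite Ccdc38, and for U2af1l4 65.6% are shared with Gm49396 on the same strand. For Hnrnpab 29.1% lie opposite Phykpl, and for Prpf31 18.1% lie opposite Gm15927, while Prpf8, Hnrnpa1 and Prpf18 share none. As the sources used here do not state how the counting treated strand or reads that match several copies, the levels of these 27, and of genes with processed copies elsewhere in the genome, are uncertain to that extent.

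**Figure D1:**
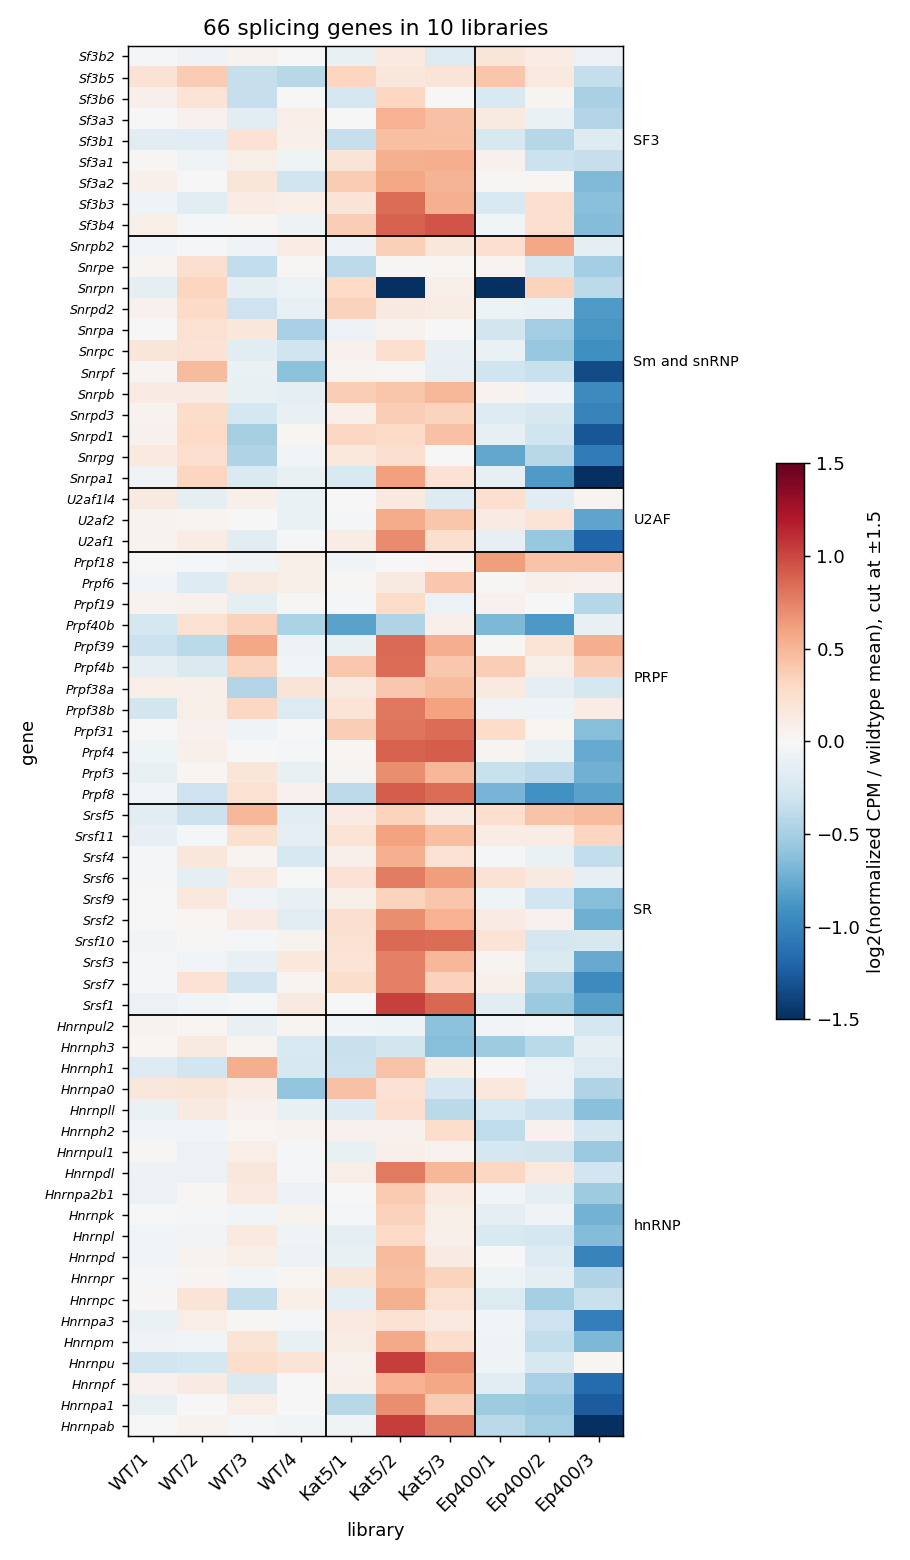
Each row is 1 of 66 genes, grouped by class, and each column 1 of the 10 libraries. Color gives the log2 ratio of the normalized CPM to the wildtype mean, with colors cut at ±1.5. Kat5/2 and Kat5/3 are mostly red, Kat5/1 is pale, Ep400/3 is mostly blue, and Snrpn is dark blue in Kat5/2 and Ep400/1 alone.

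The upstream sequences of 5 genes are shown because they carry the main patterns: Prpf8 and Hnrnpa1 as genes that passed the test in the Ep400 ko clones, Hnrnpab and Srsf1 as genes with large differences between the knockouts, and Snrpg as the Sm gene with the lowest Ep400 value. Each sequence holds the 250 bases before a RefSeq transcription start on GRCm38.p6, 5′ to 3′ on the strand of the gene. Capitals mark matches on either strand to the motifs searched. The CCAAT box was searched as CCAAT. The GC box, bound by Sp factors, was searched as GGGCGG. The motif of ETS factors was searched as CCGGAAG. The E-box was searched as CACGTG, and the TATA box as TATAAA. The NRF1 consensus was searched as well, and none of these letters contains another motif.
Prpf8, chr11:75486527-75486776, plus strand: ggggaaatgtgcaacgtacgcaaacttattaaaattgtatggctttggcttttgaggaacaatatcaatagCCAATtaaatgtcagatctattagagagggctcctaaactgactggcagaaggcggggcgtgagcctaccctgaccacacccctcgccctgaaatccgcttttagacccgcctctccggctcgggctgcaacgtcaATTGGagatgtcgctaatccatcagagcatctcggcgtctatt
Hnrnpa1, chr15:103240147-103240396, plus strand: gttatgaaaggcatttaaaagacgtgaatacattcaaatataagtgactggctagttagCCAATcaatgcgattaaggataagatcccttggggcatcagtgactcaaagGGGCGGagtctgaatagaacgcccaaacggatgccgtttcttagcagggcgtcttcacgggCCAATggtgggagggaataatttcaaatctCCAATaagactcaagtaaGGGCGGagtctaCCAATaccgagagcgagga
Hnrnpab, chr11:51606882-51607131, minus strand: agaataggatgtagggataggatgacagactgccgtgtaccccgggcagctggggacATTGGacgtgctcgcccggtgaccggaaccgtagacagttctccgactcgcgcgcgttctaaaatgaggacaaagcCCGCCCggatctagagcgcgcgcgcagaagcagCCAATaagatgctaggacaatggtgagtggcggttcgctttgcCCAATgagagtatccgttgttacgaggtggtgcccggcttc
Srsf1, chr11:88047123-88047372, plus strand: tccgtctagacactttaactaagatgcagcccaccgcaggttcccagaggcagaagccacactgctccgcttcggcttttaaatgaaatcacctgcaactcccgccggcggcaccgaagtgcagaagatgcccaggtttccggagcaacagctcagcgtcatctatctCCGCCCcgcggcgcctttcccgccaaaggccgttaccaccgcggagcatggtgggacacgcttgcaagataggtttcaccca
Snrpg, chr6:86371290-86371539, plus strand: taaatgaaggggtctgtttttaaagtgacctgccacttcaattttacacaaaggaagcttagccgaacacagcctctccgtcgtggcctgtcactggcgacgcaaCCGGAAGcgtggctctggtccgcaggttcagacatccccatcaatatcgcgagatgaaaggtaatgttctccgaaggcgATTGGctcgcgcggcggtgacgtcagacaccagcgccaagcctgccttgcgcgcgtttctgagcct

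These stretches held 4 matches to CCAAT and 2 to the GC box for Hnrnpa1, 3 and 1 for Hnrnpab, 2 to CCAAT for Prpf8, 1 to the GC box for Srsf1, and 1 each to CCAAT and ETS for Snrpg. RefSeq windows of 300 bases (250 before and 50 after a start) were found for 58 of the 67 genes and numbered 79. The ETS motif stood in 31.65% of these windows and in 8.858% of all 32851 mouse windows, and the GC box in 63.29% and 35.66%. For CCAAT the shares were 48.1% and 37.41%, for the E-box 13.92% and 7.15%, for TATAAA 8.861% and 13.62%, and for NRF1 1.266% and 0.9711%. A match describes letters and not a bound site, and windows of one gene can overlap. The mouse windows were not limited to genes expressed in these cells, whereas the 67 genes had to pass a count limit. The part of expression level in these shares was not tested. No windows were found for the other genes, among them U2af2, Sf3b5, Hnrnpul2, Prpf18, Snrpd1, Snrpb, Hnrnpll and Sf3b4.

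The first comparison asked how the genes differ between Kat5 ko clones and wildtype cells. Of the 67 genes, 55 had a log2-fold change above 0, against 50% of all 13434 genes tested, and their median log2-fold change (log2 ratio of the fitted group means) was 0.26, against 0.00 for all genes. Values after ± beside a log2 ratio are approximate standard errors. They were derived from the test below, as the absolute log2 ratio divided by the square root of its F statistic. With edgeR (quasi-likelihood test, p-values adjusted over all genes by Benjamini-Hochberg), 0 of 67 reached an adjusted p of at most 0.05, where 0.625% of all genes did. At an unadjusted p of at most 0.05, 23 were higher and 1 was lower, against 10.7% and 11.6% of all genes. DESeq2 called 3 of the 67 higher (Prpf31, Sf3b4 and Srsf10), and limma-voom called 0. Of the 22025 genes with any count in these libraries, DESeq2 called 6.32%. Here and below, that base also holds genes left out by edgeR's filter on low counts. The DESeq2 shares therefore cannot be set beside those of edgeR. In 16 genes every Kat5 ko clone lay above every wildtype library, against 9.67% of all genes, and in 1 gene (Hnrnph3) every clone lay below, against 10.2%. A stricter rule, which also asks for a 2-fold change and a mean over 100 normalized counts, was met by 0 of 67 and by 0.476% of all genes.

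The clones differed strongly from each other. The median difference of the 67 genes from the wildtype mean was 0.08, 0.46 and 0.33 on the log2 scale in Kat5/1, Kat5/2 and Kat5/3, and the genes took 1.53%, 2.04% and 1.80% of all counts there, against 1.51% to 1.61% in wildtype libraries. Above the whole wildtype range lay 19 of the 67 genes in Kat5/1 (28.4%), 51 in Kat5/2 (76.1%) and 43 in Kat5/3 (64.2%), against 27.8%, 33.6% and 33.2% of all genes. Below it lay 15 genes in Kat5/1, 2 in Kat5/2 and 5 in Kat5/3, against 27.7%, 34.1% and 31.9% of all genes. The share above the range in Kat5/1 was thus near that of all genes. With the median of all genes on its chromosome subtracted from each gene, the medians of the 67 genes were 0.04, 0.40 and 0.25. Without Kat5/1, 23 genes were called higher and 0 lower, among 19.4% of all genes, with the same direction as before for the median (0.36). Leaving out any other single library left 0 called genes.

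**Figure D2:**
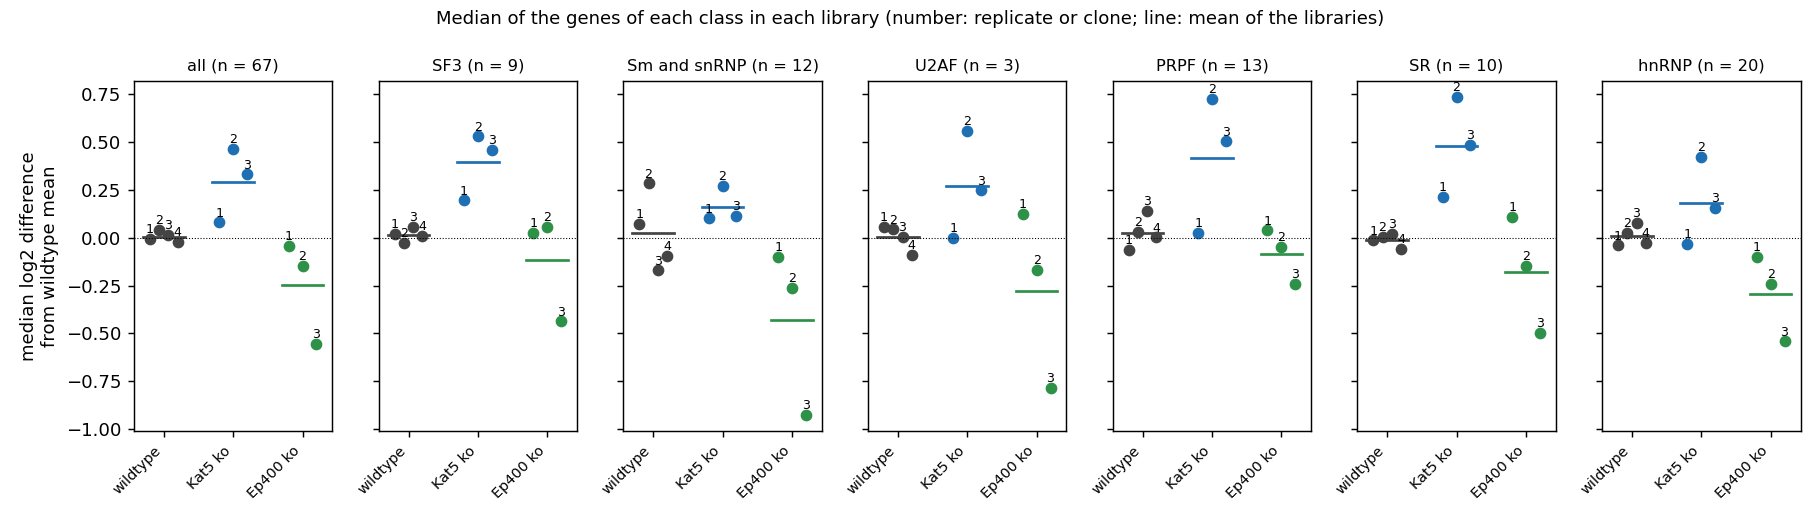
Median log2 difference from the wildtype mean over the genes of each class (y axis), in each library (points, numbered by replicate or clone), with a line at the mean of the libraries of a group. The SR genes stand at 0.21, 0.73 and 0.48 in the 3 Kat5 ko clones, and the Sm and snRNP genes at −0.93 in Ep400/3.

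The SR and PRPF genes had the highest class medians in the Kat5 ko comparison. All 10 SR genes had log2-fold changes above 0, with a median of 0.46 and a range of 0.17 to 0.66. The medians of the SR genes were 0.21, 0.73 and 0.48 in Kat5/1 to Kat5/3. Srsf1, the founding SR protein, was at 325, 335, 342 and 380.0 CPM in the wildtype libraries and 345, 705 and 625 CPM in the Kat5 ko clones. Kat5/1 thus lay within the wildtype range and the other clones far above it, and the log2 ratio was 0.66 ± 0.23 (adjusted p = 0.147). In 5 of the 10 SR genes (Srsf2, Srsf3, Srsf6, Srsf7 and Srsf10) all 3 clones were above all wildtype libraries, against 9.67% of all genes. Srsf10, which represses splicing when dephosphorylated, was at 121, 126, 122 and 129 CPM in wildtype cells and at 146, 223 and 223 CPM in the clones.

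The PRPF genes had a median log2 ratio of 0.44, and 11 of 13 were above 0. Their medians by clone were 0.02, 0.72 and 0.50, above that of the SR genes in Kat5/3. Prpf31, which bridges the U4/U6 and U5 snRNPs, was at 67.5, 70.3, 64.6 and 67.5 CPM in the wildtype libraries and at 87.1, 117 and 121 CPM in the Kat5 ko clones. No clone overlapped the wildtype range, and the log2 ratio was 0.65 ± 0.14 (adjusted p = 0.0714). DESeq2 gave an adjusted p of 0.00742 for it. Prpf8, the scaffold of the catalytic center in the U5 snRNP, was at 571, 474, 687 and 613 CPM and 448, 1096 and 1051 CPM. Here Kat5/1 was below and the other clones were above all wildtype libraries. The log2 ratio was 0.53 ± 0.29 (adjusted p = 0.316) and, without Kat5/1, 0.84 (adjusted p = 0.0134). Over all genes of chromosome 11, where Prpf8, Srsf1 and Hnrnpab lie, the median difference was −0.12, 0.16 and 0.18 in Kat5/1 to Kat5/3. On chromosome 15 (Hnrnpa1) it was −0.35, 0.09 and 0.25, and on chromosome 1 (Sf3b1) −0.26, −0.01 and 0.02. With an offset for each library and chromosome, 0 of the 67 genes were called, where 0.491% of all genes were.

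Of the 9 SF3 genes 8 had log2-fold changes above 0, with a median of 0.31. Sf3b4, a subunit of the SF3b complex, showed the largest log2-fold change of all 67 genes. It was at 136, 125, 129 and 122 CPM in wildtype cells and 165, 236 and 246 CPM in the Kat5 ko clones, again without overlap. The log2 ratio was 0.72 ± 0.16 (adjusted p = 0.0708), and DESeq2 gave an adjusted p of 0.00578. Sf3b1, the subunit that contacts the branch point, was at 351, 347, 455 and 413 CPM and 308, 537 and 535 CPM, with Kat5/1 below and the other clones above the wildtype range and a log2 ratio of 0.20 ± 0.21 (adjusted p = 0.613). Of the U2AF genes, U2af1, which reads the AG of the 3′ splice site, had 109, 114, 94.0 and 104 CPM and 114, 171 and 124 CPM, with Kat5/1 level with the highest wildtype library and a log2 ratio of 0.35 ± 0.16 (adjusted p = 0.255). Its partner U2af2, which binds the polypyrimidine tract, had a log2 ratio of 0.31 ± 0.15 (adjusted p = 0.276).

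The hnRNP genes stood closer to wildtype, with a median of 0.15 on the log2 scale and 16 of 20 above 0. Hnrnpu, a nuclear scaffold protein, was at 57.7, 58.9, 84.5 and 80.8 CPM in wildtype cells and 73.8, 145 and 114 CPM in the Kat5 ko clones, a log2 ratio of 0.62 ± 0.24 (adjusted p = 0.186). Kat5/1 lay inside the wildtype range. Hnrnpa1 was at 968, 1048, 1122 and 1051 CPM and 783, 1699 and 1367 CPM, below the wildtype range in Kat5/1 and above it in the other clones, a log2 ratio of 0.26 ± 0.23 (adjusted p = 0.542). Hnrnph3, chosen after its values were seen, was the gene with the lowest log2-fold change. Its levels of 43.7, 46.9, 43.8 and 36.4 CPM in wildtype cells and 33.9, 35.4 and 27.5 CPM in the clones did not overlap, and the log2 ratio was −0.43 ± 0.16 (adjusted p = 0.159).

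The Sm and snRNP genes had the smallest class median, at 0.12, with 8 of 12 above 0. Snrpb, an Sm protein, was at 223, 222, 189 and 185 CPM in wildtype cells and 265, 273 and 289 CPM in the Kat5 ko clones. It was the only gene of its class with all clones above all wildtype libraries, at a log2 ratio of 0.40 ± 0.13 (adjusted p = 0.137). The wildtype libraries themselves spread widely in this class, as given above.

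The second comparison asked how the genes differ between Ep400 ko clones and the same 4 wildtype libraries. Of the 67 genes, 55 had a log2-fold change below 0, against 46.9% of all 13836 genes tested, and 12 were above 0, against 53.1%. Their median was −0.23, against 0.04 for all genes. With edgeR, 2 genes fell (Prpf8 and Hnrnpa1) and 1 rose (Prpf18), which is 4.48% of the 67 where 13.7% of all genes were called. In single directions, 5.72% of all genes fell and 8% rose. At an unadjusted p of at most 0.05, 14 genes were lower and 1 was higher, against 14.2% and 18% of all genes. In 12 genes every Ep400 ko clone lay below every wildtype library and in 1 above, against 14.1% and 16.1% of all genes. The stricter rule with a 2-fold change was met by 0 of 67 and by 6.42% of all genes.

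The 3 clones again stood apart. The median difference from the wildtype mean was −0.04, −0.15 and −0.56 in Ep400/1, Ep400/2 and Ep400/3, and the genes took 1.11% to 1.48% of all counts, least in Ep400/3. Below the wildtype range lay 18 of the 67 genes in Ep400/1 (26.9%), 31 in Ep400/2 (46.3%) and 50 in Ep400/3 (74.6%), against 29.5%, 31.7% and 34.3% of all genes. Above it lay 14, 8 and 3 genes, against 31.9%, 33.2% and 37.4% of all genes. The share below the range in Ep400/1 was near that of all genes. Ep400/3 was also the library with the largest mitochondrial share (3.24%), and the part of that in its values was not tested. Without Ep400/3 the median log2-fold change was −0.10 and 22 genes were above 0, and 4 genes were called: Prpf18 was higher, and Prpf8, Hnrnpa1 and Hnrnpab were lower, where 12.3% of all genes were called.

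**Figure D3:**
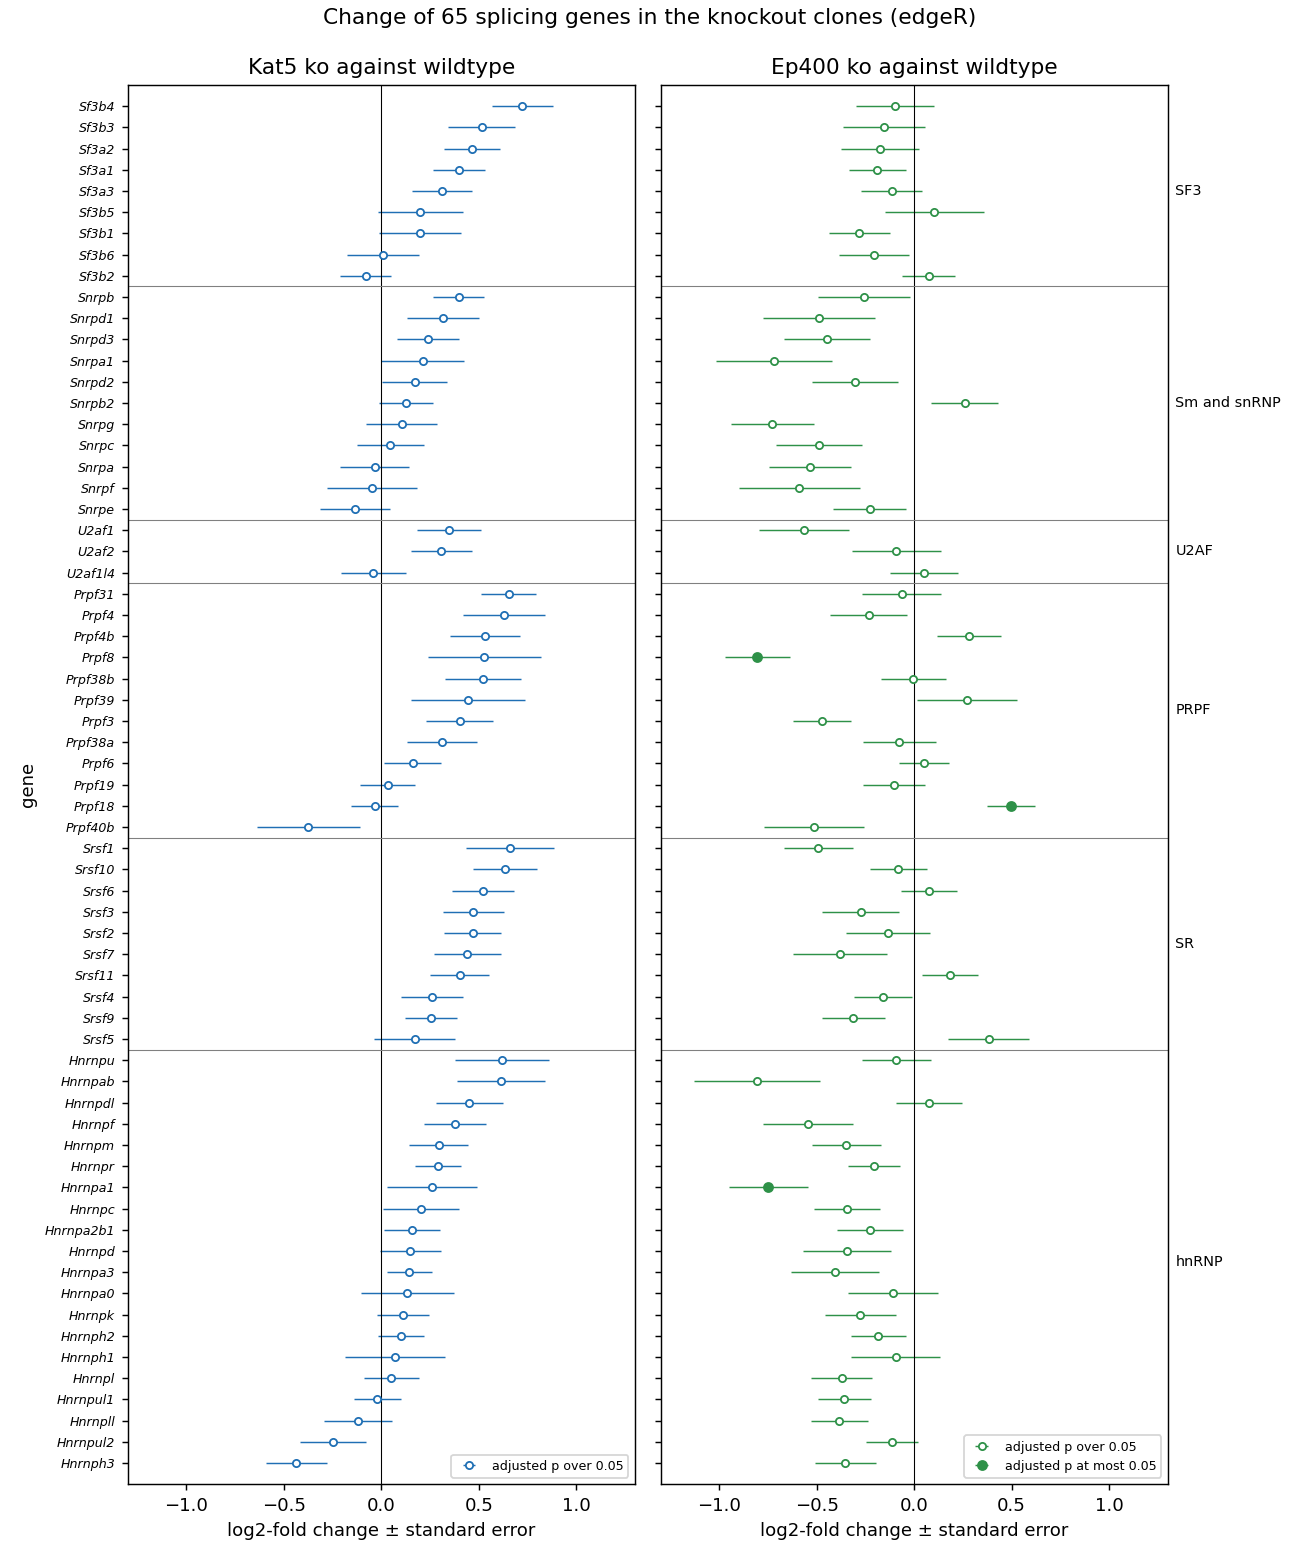
Log2-fold change (x axis) with its standard error for 65 genes (y axis, by class) in the Kat5 ko clones (blue) and the Ep400 ko clones (green) against wildtype, with filled points at an adjusted p of at most 0.05. Snrpn, whose standard error was near 1, is left out. Filled points are Prpf8, Hnrnpa1 and Prpf18, all in the Ep400 ko panel.

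Prpf8 (ENSMUSG00000020850, chromosome 11, 75486816 to 75509449, plus strand) was at 571, 474, 687 and 613 CPM in the wildtype libraries and at 362, 312 and 335 CPM in the Ep400 ko clones. All clones were below all wildtype libraries and close to each other, with means of 586 ± 89.1 (SD, n = 4) and 336 ± 25.1 CPM (SD, n = 3). Its expression fell, with a log2 ratio of −0.80 ± 0.17 (adjusted p = 0.0181). The direction stayed in every alternative, but the adjusted p was 0.0574, 0.0569 and 0.0501 without WT/1, WT/4 or Ep400/2, and 0.0959 in a single fit of all 10 libraries.

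Hnrnpa1 (ENSMUSG00000046434, chromosome 15, 103240432 to 103246692, plus strand) was at 968, 1048, 1122 and 1051 CPM in wildtype cells and at 726, 706 and 441 CPM in the Ep400 ko clones. The groups did not overlap, and Ep400/3 was lowest. Its expression fell, with a log2 ratio of −0.75 ± 0.20 (adjusted p = 0.0419). The adjusted p exceeded 0.05 without any 1 of the 4 wildtype libraries (0.0935, 0.0936, 0.0778 and 0.0981 for WT/1 to WT/4), without Ep400/2 (0.0574) and in the single fit (0.0998).

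Both genes lie on chromosomes whose genes as a whole had lower medians in these clones, and Srsf1 and Hnrnpab are on chromosome 11 too. The median difference over all genes was −0.19, −0.20 and −0.25 on chromosome 11 (Prpf8) and −0.12, −0.10 and −0.13 on chromosome 15 (Hnrnpa1) in Ep400/1 to Ep400/3. With an offset for each library and chromosome, Prpf8 remained called, whereas Hnrnpa1 had a log2-fold change of −0.64 and an adjusted p of 0.0636, so that 1 gene was higher and 1 lower.

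Prpf18 (ENSMUSG00000039449, chromosome 2, 4622058 to 4652113, minus strand), a factor of the second catalytic step of splicing, was at 40.6, 39.8, 39.3 and 43.4 CPM in wildtype cells and at 63.2, 54.7 and 55.0 CPM in the Ep400 ko clones. All 3 clones stood above all wildtype libraries, and its expression rose with a log2 ratio of 0.50 ± 0.12 (adjusted p = 0.0338). In the Kat5 ko clones it was at 39.4, 41.0 and 41.7 CPM, inside the wildtype range. The adjusted p of the Ep400 comparison was 0.110, 0.0904, 0.0644 and 0.0704 without WT/1 to WT/4, 0.0722 without Ep400/1, 0.0653 without Ep400/2, and 0.0870 without a filter on low counts.

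The Sm and snRNP genes had the lowest class median of the Ep400 comparison, at −0.49, with 11 of 12 below 0. Their medians were −0.10, −0.26 and −0.93 in Ep400/1 to Ep400/3, and all 12 lay below the wildtype range in Ep400/3, while 2 did in Ep400/1 and 3 in Ep400/2, which are smaller shares than the 29.5% and 31.7% of all genes given above. Snrpg, one of the Sm ring proteins, was at 83.9, 90.7, 55.7 and 73.9 CPM in wildtype cells and 44.2, 57.2 and 36.6 CPM in the clones, where Ep400/2 overlapped WT/3. The log2 ratio was −0.73 ± 0.21 (adjusted p = 0.0566), and DESeq2 gave an adjusted p of 0.0233. Snrpa1, a protein of the U2 snRNP, was at 86.0, 112, 76.9 and 82.6 CPM and 81.8, 49.5 and 31.8 CPM. Its clones differed more from each other than the wildtype libraries did, and the log2 ratio was −0.72 ± 0.30 (adjusted p = 0.137). Snrpb was at 212, 196 and 106 CPM, with Ep400/1 and Ep400/2 inside the wildtype range and a log2 ratio of −0.26 ± 0.24 (adjusted p = 0.478). Snrpb2, also of the U2 snRNP, was the one gene of the class above 0, at 61.8, 62.7, 60.8 and 68.6 CPM in wildtype cells and 75.6, 94.7 and 57.9 CPM in the clones.

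The median log2 ratio of the hnRNP genes was −0.34, with 19 of 20 below 0. Their medians were −0.10, −0.24 and −0.54 in Ep400/1 to Ep400/3. In 7 of the 20 all clones were below all wildtype libraries, against 14.1% of all genes. Hnrnpab, which binds AU-rich RNA, had the lowest value of all 67 genes. It was at 584, 608, 578 and 566 CPM in wildtype cells and 440.3, 408 and 155 CPM in the Ep400 ko clones, a log2 ratio of −0.81 ± 0.32 (adjusted p = 0.124). The groups did not overlap, but Ep400/3 was far below the other clones, and without it the value was −0.47 with an adjusted p of 0.0442. Hnrnph3, at 29.4, 32.2 and 38.8 CPM, overlapped the wildtype range in Ep400/3.

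The other classes stood nearer to wildtype. The SF3 genes had a median log2 ratio of −0.15 (7 of 9 below 0), the SR genes of −0.15 (7 of 10), the U2AF genes of −0.09 (2 of 3) and the PRPF genes of −0.07 (9 of 13). Ep400/3 was nonetheless the lowest clone in each of them. In Ep400/1 to Ep400/3 the medians were 0.02, 0.06 and −0.44 (SF3) and 0.11, −0.15 and −0.50 (SR). They were 0.12, −0.17 and −0.79 for U2AF, and 0.04, −0.05 and −0.24 for PRPF. Sf3b1 was at 332, 291 and 343 CPM in the clones, all below wildtype, with a log2 ratio of −0.28 ± 0.16 (adjusted p = 0.245). Srsf1 was at 308, 234 and 196 CPM, likewise all below wildtype, with a log2 ratio of −0.49 ± 0.18 (adjusted p = 0.0981). U2af1, at 96.5, 71.1 and 45.9 CPM, had a log2 ratio of −0.56 ± 0.23 (adjusted p = 0.132), with Ep400/1 inside the wildtype range. Srsf5 stood at the other end of its class, at 219.5, 198, 347 and 221 CPM in wildtype cells and 293, 330.5 and 341 CPM in the clones, and WT/3 was above all of them.

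**Figure D4:**
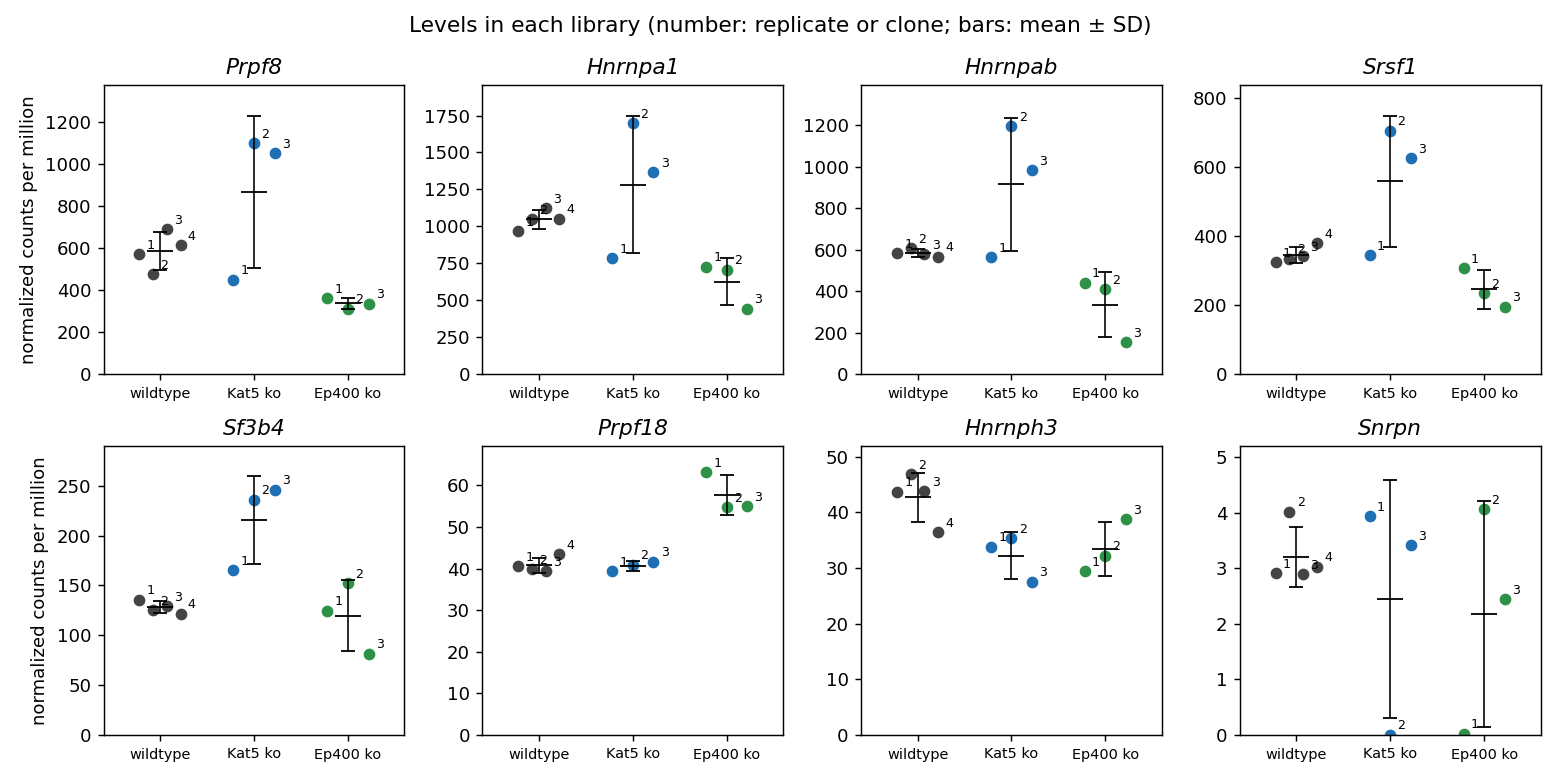
Normalized CPM (y axis, from 0) of 8 genes in each library (points, numbered), with the mean and SD of the 4 wildtype libraries, 3 Kat5 ko clones and 3 Ep400 ko clones. Prpf8 and Hnrnpa1 are lower and Prpf18 is higher in the Ep400 ko clones than in all wildtype libraries, and Snrpn is at or near 0 in Kat5/2 and Ep400/1.

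Both comparisons share their wildtype libraries, so the knockouts were also compared directly. In Ep400 ko against Kat5 ko clones, 60 of 67 genes had a log2-fold change below 0, against 49.7% of all 13587 genes, and 7 were above 0, against 50.3%. The median was −0.54, against 0.01. With edgeR, 0 of 67 were called, where 7.05% of all genes were (4.22% higher and 2.83% lower). The stricter rule was met by 0 of 67 and by 5.36% of all genes. At an unadjusted p of at most 0.05, 31 were lower and 1 was higher (16% and 16.3% of all genes). DESeq2 called 9 genes lower, where in either direction it called 13.5% of the 22321 genes with any count. Snrpg alone was called by limma-voom, which called 8.33% of all genes. The single fit of all 10 libraries called 21 lower and 1 higher, among 25.3% of all genes. In 37 genes all Ep400 ko clones were below all Kat5 ko clones, against 18% of all genes, and in 1 (Prpf18) above, against 20.5%. Without Kat5/1, 11 genes were called lower, where 18.0% of all genes were called in either direction.

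The widest gaps between the knockouts were those of Hnrnpab, with a log2 ratio of −1.47 ± 0.45 (adjusted p = 0.0765), Prpf8, with −1.38 ± 0.35 (adjusted p = 0.0536), and Srsf1, with −1.20 ± 0.32 (adjusted p = 0.059). Hnrnpab was at 562, 1196 and 984 CPM in the Kat5 ko and 440.3, 408 and 155 CPM in the Ep400 ko clones, and the 3 groups stood in the order Ep400 ko, wildtype, Kat5 ko apart from Kat5/1, which was just below the wildtype range. Srsf1 was at 345, 705 and 625 CPM and 308, 234 and 196 CPM, without overlap. Snrpg, at 85.1, 89.9 and 75.6 CPM and 44.2, 57.2 and 36.6 CPM, had a log2 ratio of −0.88 ± 0.22 (adjusted p = 0.0526). Prpf18 was the gene with the highest value, at 0.48 ± 0.17 (adjusted p = 0.105). By class the medians lay between −0.44 (PRPF) and −0.63 (SR).

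Snrpn (ENSMUSG00000102252, chromosome 7, 59982495 to 60140219, minus strand) encodes SmN, a close relative of the Sm protein made by Snrpb, and lies in an imprinted region in which it is transcribed from the paternal allele. Its counts were 91, 139, 111 and 137 in the wildtype libraries, 143, 0 and 155 in the Kat5 ko clones and 1, 130 and 98 in the Ep400 ko clones. Kat5/2 and Ep400/1 were thus at or near 0, and the other 4 clones were between 76.0% and 126% of the wildtype mean. At a floor of 3 counts in the library, the level in Kat5/2 was at least 32.5-fold lower than the wildtype mean. The 1 count of Ep400/1 was 0.730% of that mean, with an exact Poisson interval of 0.0185% to 4.07% at 95% confidence that covers counting error only. No difference between groups was called, with log2 ratios of −0.41 ± 1.04 (adjusted p = 0.849) for Kat5 and −0.57 ± 0.96 (adjusted p = 0.719) for Ep400.

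The neighbors of Snrpn differed in their pattern. The second gene under that symbol had 12, 9, 26 and 26 counts in the wildtype libraries, 15, 0 and 41 in the Kat5 ko and 0, 11 and 18 in the Ep400 ko clones. D7Ertd715e, a transcript of the same region and strand, had 16, 18, 43 and 47, then 29, 0 and 65, then 2, 19 and 46 counts. Ube3a, which overlaps that transcript on the opposite strand, was at 54.7, 112 and 106 CPM in the Kat5 ko clones and 54.2, 63.8 and 57.2 CPM in the Ep400 ko clones, against 49.2 to 75.6 CPM in the wildtype libraries. Ndn, an imprinted gene farther along the same chromosome, had 62, 102, 48 and 67 counts in the wildtype libraries, 3, 1 and 646 in the Kat5 ko and 1870, 24 and 884 in the Ep400 ko clones, so that it was high in Ep400/1, where Snrpn was near 0, and low in Kat5/2. Exons of Snrpn are shared with Snurf and with the second gene, so that reads may have been divided between them. In Kat5/2 and Ep400/1, Snrpb was at 273 and 212 CPM, against 185 to 223 CPM in the wildtype libraries.

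Around the 67 genes, 8 lists of further splicing genes with 164 tested genes were examined. In the Kat5 ko clones 0 were called by edgeR and by limma-voom, and DESeq2 called 9 higher and 1 lower. Of all genes tested, edgeR called 0.625% and limma-voom 0.729%, and DESeq2 called 6.32% of its wider base of 22025 genes. At an unadjusted p of at most 0.05 in edgeR 35 were higher and 1 was lower, against 10.7% and 11.6% of all genes. A log2-fold change above 0 was found for 137 of 164, against 50% of all genes. It was found for all 25 genes of the exon junction complex and SR-related list, with a median of 0.29, and for 17 of 19 genes of the snRNP assembly list, with a median of 0.43. In the Ep400 ko clones 3 of 164 rose and 6 fell, where 13.7% of all genes were called, and 55 were above 0, against 53.1% of all genes. DESeq2 called 4 higher and 11 lower there, and limma-voom 3 and 8, where they called 14.1% and 13.6% of all genes in either direction. For DESeq2 these were the 22532 genes with any count. The tri-snRNP, Snrnp and LSm list had a median of −0.31 with 4 of 23 above 0, and the minor spliceosome list, whose genes remove a rare class of introns, had a median of 0.19 with 8 of 12 above 0. Between the knockouts edgeR called 6 of 163 lower and 0 higher, where 2.83% and 4.22% of all genes were. At an unadjusted p 58 were lower and 5 higher, against 16% and 16.3% of all genes. DESeq2 called 25 lower and 2 higher, where in either direction it called 13.5% of the 22321 genes with any count. For limma-voom these were 8 and 0, where it called 8.33%. A log2-fold change above 0 was found for 31, against 50.3% of all genes. The lists of Prp19 complex and U2-associated factors and of SR protein kinases and phosphatases had medians between −0.09 and 0.02 in the Ep400 ko clones, and between 0.10 and 0.20 in the Kat5 ko clones.

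Called genes of these lists included Gemin5, the subunit of the SMN complex that recognizes snRNAs before Sm proteins are loaded. It was at 86.5, 99.1, 89.6 and 94.4 CPM in wildtype cells, 76.9, 231 and 219.9 CPM in the Kat5 ko and 61.8, 38.7 and 33.8 CPM in the Ep400 ko clones. Its expression fell in the Ep400 ko clones, with a log2 ratio of −1.05 ± 0.21 (adjusted p = 0.0165). Rbm10, a regulator of exon skipping, was at 94.7, 98.1, 96.8 and 89.4 CPM in wildtype cells and 61.9, 53.0 and 51.5 CPM in the Ep400 ko clones, a log2 ratio of −0.77 ± 0.12 (adjusted p = 0.00794). Syf2 and Cwc15, both of the Prp19 complex, rose with log2 ratios of 0.64 ± 0.15 (adjusted p = 0.0251) and 0.50 ± 0.13 (adjusted p = 0.0397). Of the other splicing regulators, Celf2 fell with a log2 ratio of −1.09 ± 0.16 (adjusted p = 0.00633), and Nova1, a regulator best known from neurons, rose from 2.65, 1.01, 2.06 and 2.05 CPM in wildtype cells to 10.7, 7.87 and 5.33 CPM, a log2 ratio of 2.03 ± 0.39 (adjusted p = 0.0144). Srrm4, which drives neuronal microexons, fell from 1.56, 0.983, 1.7 and 1.06 CPM to 0.141, 0.0312 and 0.0498 CPM (adjusted p = 0.00593), at levels of few counts. In Kat5/1 to Kat5/3, Nova1 was at 1.63, 11.3 and 3.70 CPM and Srrm4 at 0, 0 and 1.59 CPM.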

How the data were processed

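RNA was sequenced from 10 libraries of O9-1 cells (4 wildtype samples, 3 Kat5 ko and 3 Ep400 ko clones) after a poly-A selecting, stranded preparation. The authors deposited raw read counts per gene, made with bcl2fastq 2.20 and STAR 2.7.3 on mm10 per the submitters' processing notes, which also name DESeq2 1.36.0 and R 4.2.1. The counting program, its strand setting and the annotation are not given in the sources used here. Tables in which the authors divided the counts by size factors were deposited too and not used here.

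The counts were tested with edgeR 4.0.16 (R 4.3.3), for each pair of groups with its own libraries, using filterByExpr, TMM and the robust quasi-likelihood fit, with p-values adjusted over all genes tested by Benjamini-Hochberg. A gene was called at an adjusted p of at most 0.05. The fit was also run on simulated counts, drawn independently for each gene with a common dispersion. Such counts hold no shifts shared by the genes of a clone, so the run cannot speak to them. Alternatives were DESeq2 1.42.0, limma-voom (limma 3.58.1), other scalings, no filter, a single fit, chromosome offsets, the replicate number as a block and leaving out each library. Libraries of a group differed by more than sampling noise. Chromosome positions and exon lengths are those of GENCODE M21 on GRCm38 (mm10).

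The members and gene lists were chosen with earlier results of these data known. Named are genes that were called, the largest change per class and comparison, 1 reference gene per class, the 3 genes with the widest range in each group, the genes nearest to the count limit, the 5 highest and 5 lowest per length, and at most 3 called genes per list. Srsf5, Srsf10, Snrpb2 and Hnrnph3 were added after their values were seen. A few genes enter the counts and medians but are not reported by name here, and the plots leave them out.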

Additional observations from a re-analysis of the deposited data

Results flagged for a closer look

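In 6 of the 67 genes 1 wildtype library stood apart from the other 3 by Dixon's criterion, which chance meets in about 1 of 20 groups. The share of all genes that meet it was not computed. Of these, 4 were in WT/3, which was commonly an extreme library. Among all 14079 genes it was the highest wildtype library in 33.3% and the lowest in 33.8%. WT/3 was high for Srsf5 (347 CPM, against 198 to 221 in the others), Hnrnph1 (661 CPM, against 369 to 393) and Hnrnpl (448 CPM, against 389 to 394), and low for Hnrnpul2 (279 CPM, against 307 to 312). Snrpn was high in WT/2 (4.02 CPM, against 2.90 to 3.03), and Hnrnpa0 was low in WT/4 (175 CPM, against 284 to 300.4).

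Between the knockouts, genes of the further splicing lists were lower in Ep400 ko than in Kat5 ko clones by edgeR's quasi-likelihood test. All 3 Ep400 ko clones were compared with all 3 Kat5 ko clones, and 2.83% of all genes were called lower. These calls depend on single clones. Without Ep400/3 only 3 of all 13777 genes tested were called in either direction, and without Kat5/3 only 5 of 14061. Gemin5 had a log2 ratio of −1.99 (adjusted p = 0.0456), Elavl1 of −1.15 (adjusted p = 0.0458), Rbm10 of −0.99 (adjusted p = 0.0390), Txnl4a of −0.95 (adjusted p = 0.0433) and Rbm38 of −0.92 (adjusted p = 0.0475).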

How the results depend on the processing

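The medians of the 67 genes kept their sign under every alternative run, at 0.20 to 0.36 for Kat5, −0.33 to −0.10 for Ep400 and −0.63 to −0.40 between the knockouts when single libraries were left out. The number of called genes was less stable. For Kat5 ko against wildtype it was 3 with DESeq2 and 0 to 23 when a library was left out, with 23 without Kat5/1. For Ep400 ko against wildtype it was 5 with DESeq2, 1 in the single fit and 0 to 5 when a library was left out. It was 0 without WT/1 or WT/4, 1 without WT/2 or Ep400/2, and 5 without Ep400/1. Between the knockouts it was 9 with DESeq2, 1 with limma-voom, 4 without a filter, 22 in the single fit and 0 to 11 when a library was left out, with 11 without Kat5/1. The cause was not tested.

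With the replicate block the number of called genes was 0 in all 3 comparisons, with medians of 0.22, −0.27 and −0.56. Same-numbered libraries correlated at only −0.125 to 0.251, so the numbers were not taken as pairs. Prpf8, Hnrnpa1 and Prpf18 then had adjusted p-values of 0.0949, 0.140 and 0.128 for Ep400. By library size alone the median over all genes between the knockouts was 0.14 and that of the 67 genes −0.42.

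Some log2 ratios that were smaller in size than their standard errors turned in sign when single libraries were left out. For Kat5 these were Prpf18 (−0.042 to 0.0116), Snrpg (−0.0075 to 0.22), Snrpa1 (−0.0074 to 0.40) and Snrpn (−0.92 to 0.18). For Ep400 they were Sf3b4 (−0.33 to 0.11), Prpf31 (−0.27 to 0.15), U2af2 (−0.28 to 0.16) and Snrpn (−1.41 to 0.0128), and between the knockouts Hnrnph3 (−0.0834 to 0.11) and Snrpn (−1.04 to 0.37). A fit without robust estimation, added after seeing the data, called the same number of the 67 genes in each comparison. With 3 clones a group and clones that differ from each other, single genes near the threshold cannot be placed firmly.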
